A study of Homo sapiens with 5 samples.

Results

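Translation initiation and elongation factors were read in 5 libraries of HT1080, an established human fibrosarcoma cell line of mesenchymal character, grown inside collagen. Members were all gene entries whose symbol begins with EIF1 to EIF6, EEF1 or EEF2, which gave 66 of the 27189 entries in the gene tables. The study embedded cells of passages 15 to 18 in gels of 2 mg/ml rat-tail type I collagen for 24 h and asked how cell density and the cytokines IL-6 and IL-8 alter cells in a 3D matrix. LD held 10 cells per mm3 with no cytokine, and HD held 50 cells per mm3 with no cytokine. The other 3 libraries also held 10 cells per mm3 and received recombinant IL-6 (IL-6), recombinant IL-8 (IL-8) or both together, 5 parts IL-6 to 2 parts IL-8 (RM). All 5 share the same cell line, gel and time, so they model a single tumour line and no stroma. A gel without cells, named in the design, was not analysed here.

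The factors in question carry out protein synthesis. In initiation, eIF2 brings the initiator tRNA to the small ribosomal subunit, eIF3 holds the preinitiation complex together, and the eIF4F complex of cap-binding eIF4E, scaffold eIF4G and helicase eIF4A recruits it to the mRNA cap. eIF1 and eIF1A govern the choice of start codon, eIF5 and eIF5B drive subunit joining, and eIF6 keeps the large subunit from joining too early. In elongation, eEF1A delivers each aminoacyl-tRNA, the eEF1B subunits recharge eEF1A with GTP, eEF2 moves the ribosome along and eIF5A relieves stalling. The pathway is best known for its control points, which are phosphorylation of eIF2, sequestration of eIF4E by its binding proteins, and phosphorylation of eEF2 by its kinase. None of these protein-level events was measured here, since the values are mRNA reads.

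Each condition had 1 library, so there was no spread between replicates and no test of any difference between conditions. RNA5-8S5, a ribosomal RNA entry, took 76.9 to 79.6% of reads in the 4 low-density libraries and 51.5% in HD, and it was left out of every total. The remaining reads numbered 1100967 to 1645539 in the low-density libraries and 449661 in HD, and read counts given below have to be set against these depths. The HD library stood apart in other ways. Olfactory receptor entries took 0.364% of its reads against 0.00216 to 0.00754% elsewhere, 5 of 6 blood markers had reads (58 in all, against 0 to 2 elsewhere), all 3 endothelial markers had reads (70, against 3 to 6), and 4 of the 5 epithelial markers in the tables had reads (42, against 0 to 6). KRT5 and HBA1 were at 0 in HD. All 10 fibrosarcoma markers, led by VIM, were present in each library, with summed levels of 7623 to 11418 TPM at low density and 1399 TPM in HD. The part of these features in the HD values reported for translation factors was not tested.

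Levels between genes are given in TPM (transcripts per 1000000, which divides by transcript length) after rescaling without RNA5-8S5. Members took 2.90% of LD reads (Wilson 95% limits 2.88 and 2.93), 0.435% of HD reads (0.416 and 0.454), 2.54% of IL-6 reads, 2.90% of IL-8 reads and 2.88% of RM reads. The HD share lay far below the other 4, which ran from 2.54 to 2.90%. Intervals here and later cover counting error only, and amplified reads without molecular identifiers are not independent molecules. In bulk libraries, fewer cells of a type and less RNA per cell cannot be told apart.

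The members spanned a wide range of levels in LD. There were 7 members at 1000 TPM or more, 21 between 100 and 1000, 20 between 10 and 100, and 18 under 10. EEF1G, a structural subunit of the eEF1B exchange complex, had the highest mean level, at 5033 TPM (LD), 296 (HD), 4051 (IL-6), 5690.1 (IL-8) and 6693 (RM). EEF1A1, the main tRNA-delivering factor, stood at 2902 TPM (LD), 439.6 (HD), 2467 (IL-6), 2820.2 (IL-8) and 2759 (RM). EIF6, the subunit-joining inhibitor, stood at 1647 TPM (LD), 892 (HD), 2079 (IL-6), 4095 (IL-8) and 2456 (RM). These entries, with EIF3I, EIF3G, EEF2, EEF1D and EIF5A, made up the 8 highest members, which held 72.6% of all member TPM in LD, 54.8% in HD, 79.6% in RM, 78.1% in IL-8 and 71% in IL-6. The order of members by level was close among the low-density libraries, with a Spearman rho against LD of 0.933 in RM, 0.976 in IL-8 and 0.960 in IL-6 over 55 members, and 0.569 in HD. Across all 9300 genes tested the same values were 0.823 for RM, 0.844 for IL-8, 0.899 for IL-6 and 0.0692 for HD, and the points of each comparison share the LD library.

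**Figure D1:**
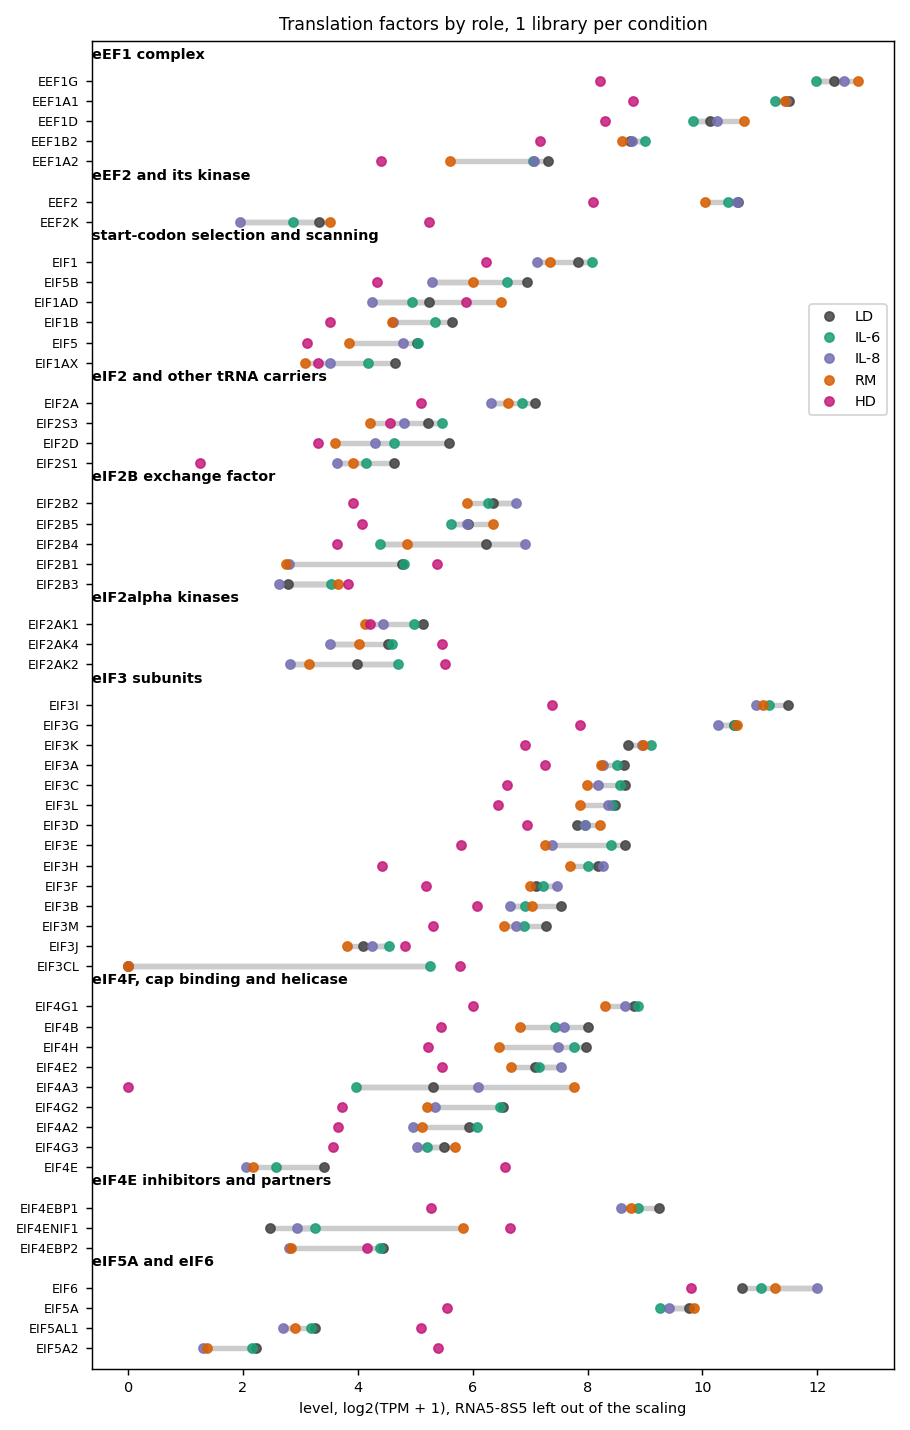
Level of each member with at least 50 reads, as log2(TPM + 1), with 1 point per library and a grey bar over the range of the 4 low-density libraries (LD, IL-6, IL-8, RM). HD points lie left of the grey bar for most highly expressed members (EEF1A1, 439.6 TPM against 2467 to 2902), and right of it for EIF4E, EIF5A2, EEF2K and EIF4ENIF1, among others.

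Messenger RNAs of many translation factors are known to begin with a run of C and T bases at the start site, the feature read by growth-dependent translational control, so the start sites are shown for members that carry such a run and for a pair that does not. Promoter windows were found for 52 of the 66 members in the RefSeq table (build GRCh38.p14). A run of at least 8 C or T bases overlapping the start site window was present in 18 of the 52 (34.6%), against 17.9% of all 27305 promoters. Each sequence below is given 5′ to 3′ on the gene's own strand from 10 bases before the annotated start to 20 bases from it onward, with the part of the longest C/T run touching these bases in capitals. The run need not cover the start itself. That of EIF4B begins after the start and goes on past the bases shown. EIF4A3 and EIF6 are the pair without a long run, and the first base shown, in capitals, is the end of a short run before it.
EEF1A1 (chr6:73521013-73521042, minus strand): cgtgaacgTTCTTTTTCgcaacgggtttgc
EEF2 (chr19:3985444-3985473, minus strand): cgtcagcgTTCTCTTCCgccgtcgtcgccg
EIF2S3 (chrX:24054946-24054975, plus strand): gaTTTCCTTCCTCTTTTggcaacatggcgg
EIF3D (chr22:36529147-36529176, minus strand): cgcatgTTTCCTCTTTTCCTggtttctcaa
EIF3F (chr11:7987327-7987356, plus strand): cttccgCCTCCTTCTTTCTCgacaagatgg
EIF4B (chr12:53006446-53006475, plus strand): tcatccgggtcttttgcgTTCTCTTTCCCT
EIF4A3 (chr17:80147109-80147138, minus strand): Cggcagcggcacagcgaggtcggcagcggc
EIF6 (chr20:35284698-35284727, minus strand): Tggtaagctggtgtgaggggaacctgggag

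The values of members with a C/T run are set here beside those of the others. The 17 tested members with a run of at least 8 had a median level of 155 TPM in LD and a median log2 difference of -2.55 in HD against LD, and the 28 with a shorter run had 48.9 TPM and -2.10, beside a median difference of -0.74 over all genes. In RM against LD the medians were -0.42 and -0.36. These groups differ in level as well as in sequence, and no cause was tested.

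Another feature was the hexamer CACGTG, the E-box bound by MYC and related factors, of which EIF4E is a textbook target. It lay within 250 bases before the start of 13 of the 52 members (25%), against 6.49% of all 27305 promoters. The word is its own reverse complement, so both strands give the same matches. Windows are shown for the 4 tested members that carried it and were called higher in HD (2-fold or more), and for EIF4A3 and EIF4H, which lay on opposite sides of LD in RM. The hexamer is in capitals.
EEF2K (chr16:22206210-22206233, plus strand): gggggcggcCACGTGagcgccacg
EIF2AK2 (chr2:37157147-37157170, minus strand): caggggcagCACGTGggtgccaag
EIF4E (chr4:98929191-98929214, minus strand): catatccgtCACGTGgccagaagc
EIF5A2 (chr3:170908785-170908808, minus strand): ggcgctcttCACGTGactgggcgg
EIF4A3 (chr17:80147235-80147258, minus strand): gttccctttCACGTGacgaagagt
EIF4H (chr7:74174148-74174171, plus strand): ccgccgcacCACGTGggctgcaga
Of the 12 tested members with the hexamer, 7 were lower and 4 higher in HD by at least 1 log2 unit, with a median of -2.17. Of the 33 tested members without it, 25 were lower and 2 higher, with a median of -2.44. Over all genes tested, 45.8% were lower and 28.7% higher. The median LD level was 43.6 TPM with the hexamer and 81.2 TPM without it, and the share of genes called in HD varied with level, as given below. Letters in a window are no evidence of a bound factor. For comparison, GGGCGG stood in 71.2% of member windows and 42.3% of all, CCAAT in 36.5% and 33%, TATAAA in 5.77% and 11.1%, and GGAAGT in 21.2% and 19.9%, counted on both strands. The stress-response word TGATGNAA was in 0 of the 52 member windows and in 3.19% of all. EIF4E had the E-box hexamer at 225 and 72 bases before its start, and its 250 bases before the start (chr4:98929134-98929383, minus strand) read as follows, with both matches in capitals.
EIF4E: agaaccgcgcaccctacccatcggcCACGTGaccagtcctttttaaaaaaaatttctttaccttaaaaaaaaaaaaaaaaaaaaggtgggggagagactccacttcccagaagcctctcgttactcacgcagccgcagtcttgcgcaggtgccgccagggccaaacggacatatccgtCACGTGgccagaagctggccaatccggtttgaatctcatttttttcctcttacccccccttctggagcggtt

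Differences between conditions are log2 differences of CPM + 1 against LD, where CPM is reads per 1000000 outside RNA5-8S5. A member was called higher or lower at 1 log2 unit (2-fold) or more, among entries with at least 50 reads summed over the 5 libraries. That left 55 of the 66 members, and 9300 genes in all. The 11 members under the limit were EEF1E1, EIF1AY, EIF2S2, EIF2AK3, EIF4E1B, EIF4E3, EIF4EBP3, EEF1DP3, EIF3IP1, EIF1B-AS1 and EIF3J-AS1. The median difference of all genes was -0.74 for HD, 0.05 for IL-6, -0.24 for IL-8 and -0.43 for RM, and each list of differences has to be read against that shift. All 4 comparisons use the same LD library.

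Few members differed between IL-6 and LD. In IL-6, 2 of 55 were lower (EIF2B4 and EIF4A3) and 3 were higher (EIF2AK2, EIF4ENIF1 and EIF3CL). Over all genes tested, 8.55% were lower and 12.2% higher. The median member difference was -0.11. When the exact counting interval of the ratio also had to exclude 1, EIF4ENIF1 was no longer called, and the member counts were 2 lower and 2 higher, beside 7.49% and 9.92% of all genes.

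IL-8 gave 9 lower members and 2 higher. The lower members were EEF2K, EIF1AX, EIF2B1, EIF2D, EIF3E, EIF4E, EIF4EBP2, EIF4G2 and EIF5A2, and the higher were EIF6 and EIF4ENIF1. The background was 21.4% lower and 12.5% higher over all genes, beside 9 of 55 members (16.4%) lower. The lower share of genes fell with mean level over the 5 libraries. From 10 to 30 TPM, 7 of 17 members were lower beside 25.1% of genes, and from 30 to 100 TPM 1 of 12 beside 17.7%. From 100 to 300 TPM it was 1 of 12 beside 7.66%, and at 300 TPM or more 0 of 13 beside 1.98%. With the counting interval required, EIF5A2 dropped out, and the counts were 8 and 2 beside 19.1% and 10.9%. The median member difference was -0.39. Median-ratio scaling, which sets the library size by the typical gene, left 3 lower and 4 higher, beside 13.7% and 18.4% of all genes. EIF6 was called higher under every scaling. The call of EIF4ENIF1, at 1.32, was lost on the TPM scale (0.46), with RNA5-8S5 kept (0.86), with a pseudocount of 5 (0.95) and after thinning to equal depth (0.54).

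RM gave 13 lower members and 4 higher, beside 29% and 10.9% of all genes. The lower members were EEF1A2, EIF1AX, EIF2B1, EIF2B4, EIF2D, EIF3E, EIF4B, EIF4E, EIF4EBP2, EIF4G2, EIF4H, EIF5 and EIF5B. The higher were EIF4A3, EIF4ENIF1, EIF1AD and EIF2B3. All 17 calls also passed the counting interval, beside 26.9% and 10% of all genes. By mean level, 6 of 17 members from 10 to 30 TPM were lower beside 33.4% of genes, and from 30 to 100 TPM 4 of 12 beside 24.7%. From 100 to 300 TPM it was 3 of 12 beside 13.3%, and at 300 TPM or more 0 of 13 beside 3.95%. The counts of members called in RM depended on scaling. Under median-ratio size factors 2 were lower and 10 higher, beside 15.2% and 21.3% of all genes. Under TMM the counts were 5 and 5, beside 18.4% and 17.4%. With a limit of 200 reads the member counts of 44 were 2 lower and 0 higher for IL-6 (5.25% and 6.96% of genes), 5 and 1 for IL-8 (14.3% and 10.6%), and 10 and 2 for RM (21% and 11.2%). Of the members named by the rule, EIF2D and EIF2B1 were called lower, and EIF4A3, EIF1AD and EIF4ENIF1 higher, under each scaling run, and that of EIF4ENIF1 was lost after thinning.

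**Figure D2:**
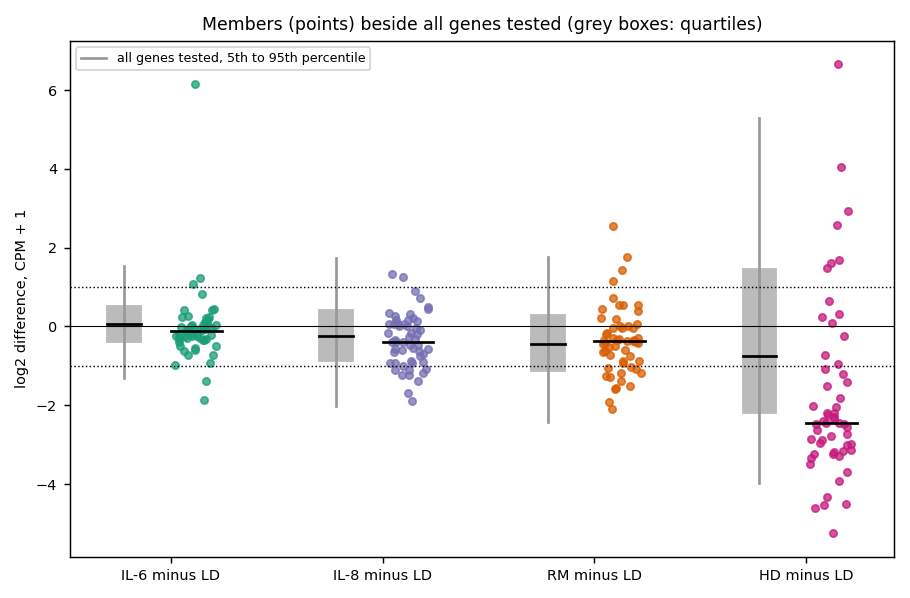
Log2 difference from LD (CPM + 1) for the 55 tested members, 1 point each with a black line at their median, beside all 9300 genes tested (grey box for the quartiles, black line for the median, whisker from the 5th to the 95th percentile). Member medians run from -0.11 for IL-6 to -2.44 for HD, with -0.39 for IL-8 and -0.37 for RM, and dotted lines mark the 1 log2 unit threshold.

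More members were called in HD than in any other comparison with LD. In HD, 41 of 55 members were lower and 7 were higher, beside 45.8% and 28.7% of all genes, and the same counts passed the counting interval (41.7% and 28% of all genes). The median member difference was -2.44, against -0.74 for all genes. The 7 higher members were EEF2K, EIF2AK2, EIF3CL, EIF4E, EIF4ENIF1, EIF5A2 and EIF5AL1. Those not called were EIF1AD, EIF2AK4, EIF2B1, EIF2B3, EIF3J, EIF4E2 and EIF4EBP2. By position, 42 members lay below all 4 low-density libraries in CPM, 8 above and 5 within their range, beside 45% below and 31.3% above over all genes. With RNA5-8S5 kept in the totals, 34 were lower and 11 higher, beside 26.3% and 39% of all genes. The marker and olfactory receptor reads given above belong to the same library, and their part in the 7 higher members was not tested.

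By mean level over the 5 libraries, low HD values were most frequent among the abundant genes, and many members are abundant. Mean level and summed reads come mostly from the 4 low-density libraries, so the shares below are partly set by how genes were sorted. A gene rare at low density can also enter a range through HD itself, such as EIF4ENIF1 (4.55 TPM in LD, 99.8 in HD). At 300 TPM or more of mean level, 13 of 13 members were lower in HD, beside 81.4% of all 506 genes at that level, with medians of -3.18 and -2.51. From 100 to 300 TPM the counts were 11 of 12 beside 73.3%, with medians of -2.45 and -2.19. From 30 to 100 TPM, 10 of 12 members were lower beside 54.7%, with medians of -2.67 and -1.27. From 10 to 30 TPM, 7 of 17 members were lower and 6 higher, beside 34.5% and 37.2% of genes. With a limit of 200 reads in place of 50, 39 of 44 members were lower and 1 higher, beside 65.2% and 12.6%, and 40 lay below all 4 low-density libraries and 1 above, beside 68.5% and 14%. The member share lower was above the share of genes at the same level in each of these ranges, and fewer than 20 members stand in each. The 7 higher members stood at means from 10 to 100 TPM.

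**Figure D3:**
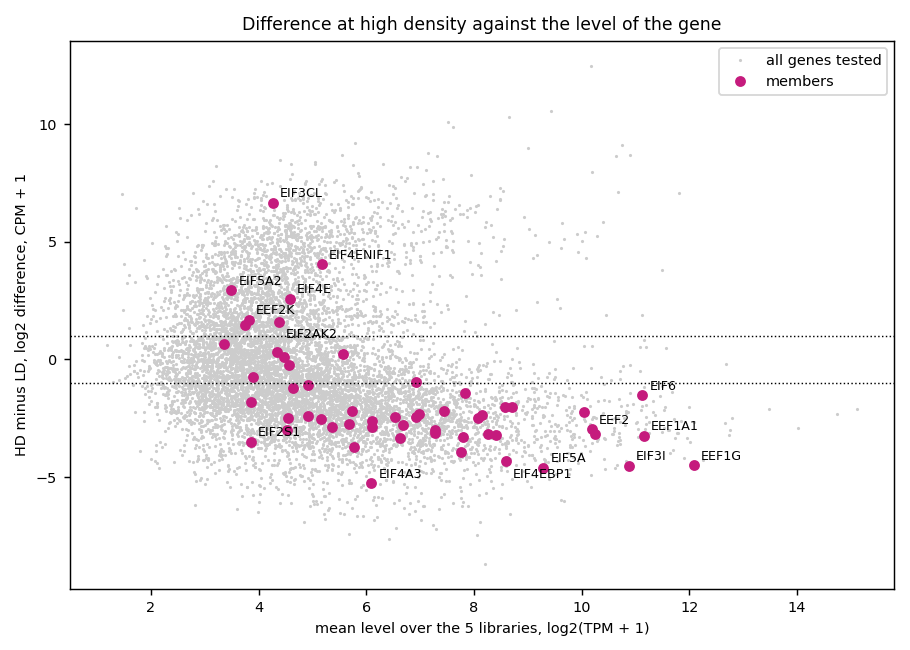
HD minus LD log2 difference (CPM + 1) against mean level over the 5 libraries (log2(TPM + 1)), with members in pink over all 9300 genes tested in grey. Above 300 TPM all 13 members lie below the lower dotted line, and the members above the upper line all have low means.

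The eEF1 complex held the most abundant factors. In TPM it summed to 9648 in LD, 1215 in HD, 11588 in RM, 10310.4 in IL-8 and 8095 in IL-6. EEF1A1 had 10179 reads (LD), 293 (HD), 5628 (IL-6), 7212 (IL-8) and 9335 (RM). It differed from LD by -0.28, 0.06 and 0.07 in IL-6, IL-8 and RM, and the IL-8 and RM differences changed sign between scalings. In HD it was -3.24, or 9.49-fold lower with the ratio at 0.105 [95% counting interval 0.0935 to 0.118]. EEF1A1 shared 22.5% of its 50-base transcript windows with other entries, mostly the pseudogene EEF1A1P5, so its reads could be divided. EEF1G had 7490 LD reads, 90 HD reads, 4042 IL-6 reads, 6130 IL-8 reads and 9569 RM reads and was 22.7-fold lower in HD, with a ratio of 0.044 [0.0353 to 0.0541], below that of EEF1A1. Most EEF1G windows (95.8%) are shared with other entries. EEF1D, the eEF1B subunit that exchanges nucleotide, had 79 reads in HD, and 1382 (LD), 759 (IL-6), 1096 (IL-8) and 1996 (RM) at low density. It was highest in RM, with a difference of 0.73 and a ratio of 1.66 [1.55 to 1.78], which was below the 1 log2 unit threshold there and above it under 2 of the alternative settings. EEF1B2, the other exchange subunit, had 344 reads (LD), 23 (HD), 272 (IL-6), 246 (IL-8) and 293 (RM), and its CPM stayed within 1.21-fold among the low-density libraries. EEF1E1, a scaffold protein of the aminoacyl-tRNA synthetase complex, had 7 LD reads, 0 HD reads, 9 IL-6 reads, 5 IL-8 reads and 5 RM reads, too few for a call.

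EEF1A2, the tissue-restricted paralogue of EEF1A1, differed from EEF1A1 in RM. It had 8 reads in HD, and 312 (LD), 175 (IL-6), 190 (IL-8) and 90 (RM) at low density, and its RM ratio to LD was 0.331 [0.259 to 0.42], or 3.02-fold lower. As a share of EEF1A1 and EEF1A2 reads together it was 2.97% in LD (limits 2.67 and 3.32), 2.66% in HD (1.35 and 5.16), 0.955% in RM (0.778 and 1.17), 2.57% in IL-8 and 3.02% in IL-6. The share does not depend on library scaling, and the RM interval overlapped none of the other 4. The RM difference of EEF1A2 from LD was -1.58 on the log2 scale, and it was called under each setting run but median-ratio size factors, which gave -0.99.

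eEF2 and its kinase went in opposite directions in HD, and they stand at unlike levels. By mean level EEF2 (1170 TPM) lay at 300 TPM or more, where 81.4% of all genes were lower in HD. EEF2K (13 TPM) lay from 10 to 30 TPM, where 34.5% were lower and 37.2% higher. EEF2, the translocation factor, stood at 1578 TPM (LD), 272 (HD), 1390.4 (IL-6), 1551 (IL-8) and 1058 (RM) and was 7.84-fold lower in HD. EEF2K, which inhibits eEF2 by phosphorylation, had 60 reads (LD), 54 (HD), 26 (IL-6), 15 (IL-8) and 51 (RM). It lay 2.72-fold below LD in IL-8 (ratio 0.367 [0.194 to 0.655]) and was higher than LD in HD (ratio 3.29 [2.24 to 4.84]). Of the reads of both genes, EEF2K held 1.19% in LD, 23.7% in HD (18.6 to 29.6), 1.56% in RM, 0.421% in IL-8 and 0.875% in IL-6. EEF2K is the member with the E-box window shown above at 59 bases before the start.

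**Figure D4:**
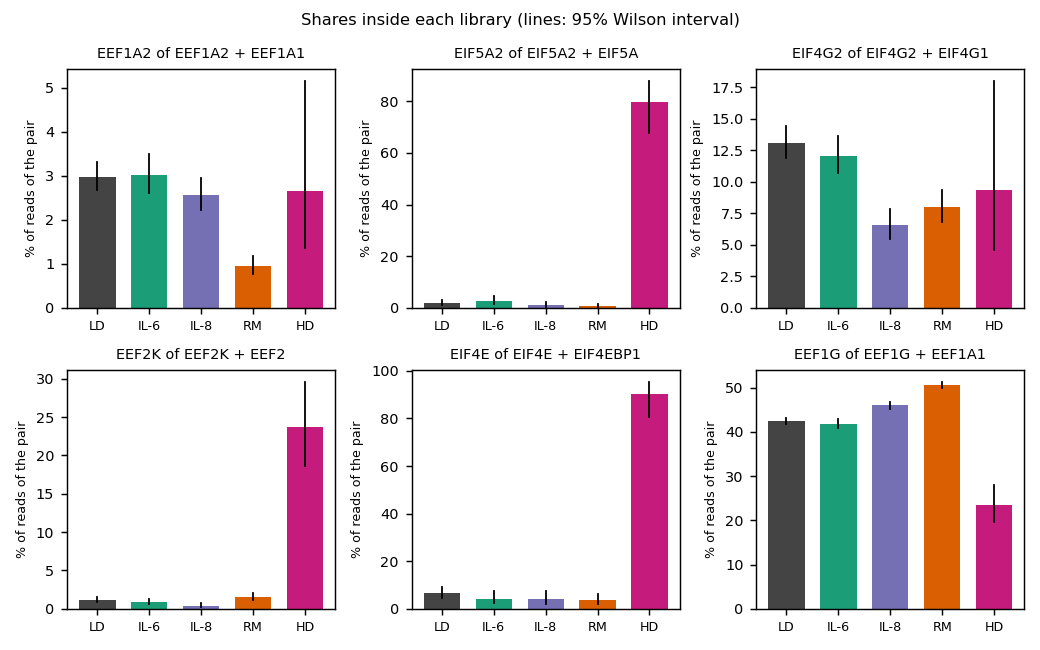
Percent of reads held by the first gene of each pair within each library, with 95% Wilson counting intervals as black lines and an axis from 0. EIF5A2 holds 79.7% and EIF4E 90.3% of their pairs in HD, against at most 2.68% and 6.52% elsewhere. In both pairs the first gene has a mean level from 10 to 30 TPM and the second of 300 TPM or more. Over all genes, 37.2% and 9.49% at these levels were higher in HD.

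Among factors of scanning and start-codon choice, 5 of 6 tested members were lower in HD and 3 in RM, beside 45.8% and 29% of all genes. EIF1, the gatekeeper of start-codon recognition, stood at 228 TPM (LD), 74.4 (HD), 268 (IL-6), 138 (IL-8) and 161 (RM) and was 4.65-fold lower in HD. EIF1AX, the X-linked gene of eIF1A, had 108 LD reads, 8 HD reads, 51 IL-6 reads, 34 IL-8 reads and 32 RM reads. It lay below LD in every other library, with ratios of 0.462 [0.305 to 0.685] in IL-8 and 0.34 [0.222 to 0.508] in RM. The Y-linked EIF1AY is a member, and its level is not given. EIF1AD, an entry named for its eIF1A-type domain, had 33 reads in HD, and 102 (LD), 55 (IL-6), 37 (IL-8) and 244 (RM) at low density, and it was the one start-codon member higher in RM, at 2.74 [2.17 to 3.49]. EIF5, the GTPase activator of eIF2, had 192 reads (LD), 9 (HD), 131 (IL-6), 116 (IL-8) and 79 (RM), and EIF5B, the GTPase of subunit joining, had 385 LD reads, 14 HD reads, 239 IL-6 reads, 131 IL-8 reads and 165 RM reads. Both were lower in RM, at -1.07 and -1.02, values that came to -0.48 and -0.42 under median-ratio scaling. EIF1B, a paralogue of EIF1, held 10 to 13.7% of the reads of the pair across the 5 libraries.

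The eIF2 subunits stood at low levels. EIF2S1, the alpha subunit whose phosphorylation blocks initiation, had 2 reads in HD, and 100 (LD), 47 (IL-6), 35 (IL-8) and 57 (RM) at low density. With 2 reads in HD its ratio was 0.0732 [0.00874 to 0.271]. EIF2S3, the GTP-binding gamma subunit, had 126 reads (LD), 16 (HD), 101 (IL-6), 68 (IL-8) and 59 (RM) and differed by -1.08 in HD, a call lost under TPM, under median-ratio scaling and with RNA5-8S5 kept. EIF2S2, the beta subunit, was listed at 0 in all 5 libraries. This subunit is used by every cell and 22.6% of its windows are shared with other entries, so only the listing is reported. EIF2A, an alternative carrier of initiator tRNA, had 511 LD reads, 25 HD reads, 291 IL-6 reads, 215 IL-8 reads and 349 RM reads. EIF2D, a factor that can bind tRNA to the small subunit and acts in recycling, had 3 reads in HD, and 98 (LD), 33 (IL-6), 28 (IL-8) and 19 (RM) at low density. It lay below LD in each cytokine library, with ratios of 0.222 [0.128 to 0.366] for RM, 0.42 [0.265 to 0.644] for IL-8 and 0.503 [0.328 to 0.754] for IL-6.

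eIF2B reloads eIF2 with GTP, and its 5 subunit genes did not move together. EIF2B4, the delta subunit, had 130 reads (LD), 5 (HD), 23 (IL-6), 146 (IL-8) and 46 (RM). It was lower in IL-6 (ratio 0.264 [0.162 to 0.414]) and in RM (0.406 [0.283 to 0.572]), and higher than LD without reaching the threshold in IL-8 (1.65 [1.29 to 2.11]). EIF2B1, the alpha subunit, had 48 LD reads, 14 HD reads, 33 IL-6 reads, 8 IL-8 reads and 10 RM reads, and was lower in IL-8 (0.245 [0.10 to 0.522]) and RM (0.239 [0.108 to 0.478]) but at 1.03 [0.639 to 1.63] in IL-6. EIF2B3, the gamma subunit, had 5 reads in HD, and 11 (LD), 14 (IL-6), 7 (IL-8) and 23 (RM) at low density, and was called higher in RM. EIF2B2 and EIF2B5, the beta and epsilon subunits, stayed within 1 log2 unit of LD in every low-density library. In HD, EIF2B2, EIF2B4 and EIF2B5 were lower and EIF2B1 differed by 0.09.

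Of the 4 kinases that phosphorylate eIF2 alpha, 3 had enough reads. EIF2AK2, the RNA-activated kinase PKR, which is an interferon-induced gene, stood at 14.8 TPM (LD), 44.7 (HD), 24.9 (IL-6), 6.02 (IL-8) and 7.83 (RM). It had 42 reads (LD), 36 (HD), 67 (IL-6), 19 (IL-8) and 28 (RM). The IL-6 ratio was 2.38 [1.6 to 3.59], and the HD ratio was 3.14 [1.95 to 5.02]. On the TPM scale the IL-6 difference was 0.71, under the threshold. EIF2AK1, the haem-regulated kinase, had 138 LD reads, 16 HD reads, 89 IL-6 reads, 60 IL-8 reads and 71 RM reads. It differed by -1.21 in HD, a call lost on the TPM scale (-0.92) and with RNA5-8S5 kept (-0.16). EIF2AK4, the amino-acid sensing kinase GCN2, had 19 reads in HD, and 82 (LD), 57 (IL-6), 38 (IL-8) and 70 (RM) at low density and stayed within 1 log2 unit of LD in each library. EIF2AK3, the endoplasmic reticulum kinase PERK, had 2 reads (LD), 2 (HD), 0 (IL-6), 1 (IL-8) and 0 (RM), too few to place.

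The 14 eIF3 entries spanned a 179-fold range in LD among those with reads. EIF3I stood at 2875 TPM (LD), 165 (HD), 2282 (IL-6), 1961 (IL-8) and 2139.7 (RM), and EIF3G at 1507 TPM (LD), 233 (HD), 1510.4 (IL-6), 1238 (IL-8) and 1551 (RM). At low density few eIF3 entries were called. In RM 1 of 14 entries was lower and 0 higher, and in IL-8 the counts were the same, and in IL-6 EIF3CL was higher and no entry lower. Over all genes, 29% were lower in RM, 21.4% lower in IL-8 and 12.2% higher in IL-6. Most eIF3 entries have mean levels above 100 TPM. Of genes from 100 to 300 TPM, 13.3% were lower in RM and 7.66% in IL-8, and of those above, 3.95% and 1.98%. The lower entry in IL-8 and RM was EIF3E, which had 584 LD reads, 16 HD reads, 332 IL-6 reads, 174 IL-8 reads and 212 RM reads. Its ratio was 0.438 [0.367 to 0.519] in IL-8 and 0.416 [0.354 to 0.488] in RM, close to each other and away from its value in IL-6 (0.85 [0.74 to 0.974]). In HD 12 of 14 were lower, beside 45.8% of all genes, 73.3% of genes from 100 to 300 TPM and 81.4% of those above, with the largest decrease in EIF3I (-4.52, ratio 0.0431 [0.0317 to 0.0572]) and the smallest of the 12 in EIF3D (-1.41). EIF3A, the large scaffold subunit, had 57 reads in HD, and 1872 (LD), 1112 (IL-6), 964 (IL-8) and 1034 (RM) at low density and was 8.97-fold lower in HD, and EIF3H was 16.2-fold lower. EIF3J, which binds the complex loosely, had 41 reads (LD), 14 (HD), 38 (IL-6), 31 (IL-8) and 32 (RM) and was not called in any comparison.

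EIF3C and its near-identical copy EIF3CL are hard to tell apart with 50-base reads, since 97.2% of the EIF3CL windows also occur in EIF3C. EIF3CL had 0 LD reads, 45 HD reads, 77 IL-6 reads, 0 IL-8 reads and 0 RM reads, and without the IL-6 reads it would fall under the limit of 50 reads. Against a floor of 3 reads in LD it was at least 38.4-fold higher in IL-6 and at least 54.9-fold higher in HD. EIF3C had 65 reads in HD, and 1229 (LD), 780 (IL-6), 640 (IL-8) and 761 (RM) at low density. With both summed, an alternative added after seeing the data, the differences from LD were -1.61 (HD), 0.06 (IL-6), -0.39 (IL-8) and -0.49 (RM), and EIF3CL then made no call of its own.

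eIF4F and its partners held differences in both directions. EIF4G1, the main scaffold, had 2349 reads (LD), 68 (HD), 1665 (IL-6), 1600 (IL-8) and 1569 (RM) and stayed within 1.38-fold in CPM at low density and was 9.44-fold lower in HD. EIF4G2, a scaffold that works without cap-bound eIF4E, had 354 LD reads, 7 HD reads, 229 IL-6 reads, 112 IL-8 reads and 136 RM reads. Its share of the reads of both scaffolds was 13.1% in LD, 9.33% in HD, 7.98% in RM, 6.54% in IL-8 and 12.1% in IL-6, and the Wilson intervals of IL-8 (5.47 to 7.81) and RM (6.78 to 9.36) lay below that of LD (11.9 to 14.4). EIF4B, the helicase cofactor, had 35 reads in HD, and 1034 (LD), 452 (IL-6), 561 (IL-8) and 435 (RM) at low density and was lower in RM at 0.483 [0.43 to 0.54]. EIF4H, a related cofactor, had 623 reads (LD), 19 (HD), 359 (IL-6), 322 (IL-8) and 206 (RM) and was lower in RM at 0.379 [0.322 to 0.445]. EIF4A1 under its own symbol was not analysed here. The read-through entry SENP3-EIF4A1, which is no member, had 2554 reads (LD), 46 (HD), 1537 (IL-6), 1139 (IL-8) and 1420 (RM). EIF4A2, its paralogue, had 116 LD reads, 4 HD reads, 90 IL-6 reads, 41 IL-8 reads and 61 RM reads and was 7.92-fold lower in HD. EIF4E2, a cap-binding repressor, had 23 reads in HD, and 163 (LD), 111 (IL-6), 138 (IL-8) and 116 (RM) at low density and differed by -0.94 in HD, just inside the threshold.

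EIF4A3, the helicase of the exon junction complex, had the widest spread of any member across low density with reads in all 4 libraries, a 16.3-fold range of CPM. It had 61 reads (LD), 0 (HD), 15 (IL-6), 78 (IL-8) and 319 (RM). RM held the highest value, with a ratio to LD of 6.0 [4.55 to 8.03], IL-8 lay above LD at 1.88 [1.33 to 2.67], and IL-6 below it at 0.368 [0.194 to 0.655]. The single cytokines therefore lay on opposite sides of LD, and RM lay above LD and both of them. In HD there were 0 reads, and against a floor of 3 reads EIF4A3 was at least 5.56-fold lower. The RM call held under every setting run.

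EIF4E, the cap-binding protein and a limiting factor for many growth-related mRNAs, went the other way from most members in HD. It had 33 LD reads, 56 HD reads, 11 IL-6 reads, 9 IL-8 reads and 12 RM reads. It was lower than LD in IL-8 and RM (0.40 [0.169 to 0.855] and 0.417 [0.196 to 0.829]), calls that rest on 9 and 12 reads and came to -0.91 and -0.62 under median-ratio scaling, and it was higher in HD at 6.21 [3.97 to 9.86]. EIF4EBP1, the repressor that sequesters eIF4E, had 6 reads in HD, and 473 (LD), 249 (IL-6), 218 (IL-8) and 326 (RM) at low density and was 21.5-fold lower in HD. EIF4E held 6.52% of the reads of the pair in LD, 90.3% in HD (80.5 to 95.5), 3.55% in RM, 3.96% in IL-8 and 4.23% in IL-6. By mean level EIF4E lay from 10 to 30 TPM, where 37.2% of all genes were higher in HD. EIF4EBP1 lay at 300 TPM or more, where 81.4% were lower. EIF4EBP2, another repressor of this kind, had 159 reads (LD), 26 (HD), 103 (IL-6), 33 (IL-8) and 46 (RM). It was lower in IL-8 (0.305 [0.203 to 0.446]) and RM (0.332 [0.234 to 0.463]) and at 0.968 [0.748 to 1.25] in IL-6. EIF4ENIF1, the eIF4E transporter, had 9 LD reads, 48 HD reads, 14 IL-6 reads, 17 IL-8 reads and 30 RM reads, with the lowest count in LD and the highest in HD, where the ratio was 19.5 [9.47 to 45.2]. Its RM ratio was 3.82 [1.77 to 9.16], a log2 difference of 1.76 that came to 0.54 when the libraries were thinned to equal depth. Its level was 4.55 TPM (LD), 99.8 (HD), 8.55 (IL-6), 6.65 (IL-8) and 55.8 (RM).

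**Figure D5:**
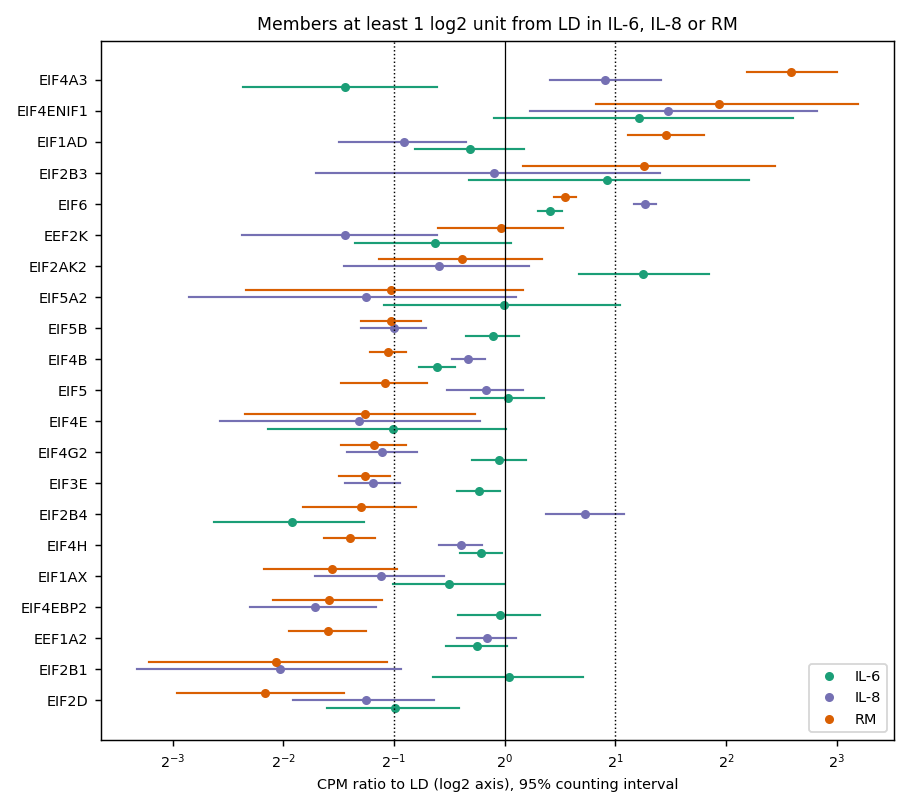
CPM ratio to LD on a log2 axis with exact 95% counting intervals for the 21 members at least 1 log2 unit from LD in IL-6, IL-8 or RM, EIF3CL left out because it has 0 reads in LD. EIF4A3 spans both sides of 1, with ratios of 0.368 for IL-6, 1.88 for IL-8 and 6 for RM.

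eIF5A and eIF6 completed the set. EIF5A, the elongation factor with the amino acid hypusine, had 12 reads in HD, and 1102 (LD), 508 (IL-6), 619 (IL-8) and 1112 (RM) at low density and was 25.1-fold lower in HD (0.0398 [0.0205 to 0.0699]). EIF5A2, its low-abundance paralogue, had 21 reads (LD), 47 (HD), 14 (IL-6), 6 (IL-8) and 9 (RM), with a ratio of 8.19 [4.8 to 14.4] in HD. It held 1.87% of the reads of the pair in LD, 79.7% in HD (67.7 to 88), 0.803% in RM, 0.96% in IL-8 and 2.68% in IL-6. EIF5AL1, an EIF5A-like entry, had 33 LD reads, 26 HD reads, 21 IL-6 reads, 16 IL-8 reads and 25 RM reads. It held 2.91% of the reads of EIF5A and EIF5AL1 in LD and 68.4% in HD, and 14.5% of the windows of EIF5A also occur in EIF5AL1. By mean level EIF5A2 and EIF5AL1 lay from 10 to 30 TPM, where 37.2% of all genes were higher in HD. EIF5A lay at 300 TPM or more, where 81.4% were lower. EIF6 was the member with the most reads among those higher in IL-8. It had 135 reads in HD, and 1420 (LD), 1260 (IL-6), 2327 (IL-8) and 1805 (RM) at low density, so IL-8 held the highest count although its library was smaller than those of LD and RM, and the ratio to LD was 2.41 [2.25 to 2.57]. The RM ratio was 1.46 [1.36 to 1.56], the IL-6 ratio 1.33 [1.23 to 1.43] and the HD ratio 0.348 [0.289 to 0.415]. The HD value of EIF6 was the mildest among the 8 highest members, and it was not called on the TPM scale (-0.88) or with RNA5-8S5 kept (-0.45).

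Genes that work beside the factors were read in 4 lists, and in IL-6 and IL-8 each list had at most 2 genes called in either direction. The lists hold 9 to 11 tested genes, so 2 genes made 18.2 to 22.2% of a list. Over all genes, 8.55% were lower and 12.2% higher in IL-6, and 21.4% and 12.5% in IL-8. The shares of all genes beside the counts below were 45.8% lower and 28.7% higher in HD, and 29% and 10.9% in RM. For termination, recycling and poly-A binding, 7 of 9 tested genes were lower in HD and 2 higher, and 5 of 9 were lower in RM. PABPC1, the poly-A binding protein that contacts eIF4G, at 3244 LD reads and 66 HD reads, had a log2 difference of -3.74. MCTS1 and DENR, which form a heterodimer in recycling and reinitiation, were the 2 higher genes, at 2.76 and 1.82. For mitochondrial translation factors, 3 of 10 were lower and 2 higher in HD, and 4 were lower in RM. For mTORC1 and its neighbours, 9 of 11 tested genes were lower in HD and 1 higher, and in RM 1 was lower and 2 were higher. MKNK2, a kinase of eIF4E, had a difference of 1.48 in RM. For enzymes that modify eIF5A, eEF2 and eIF2 alpha, 3 of 9 were lower and 2 higher in HD, and 3 lower and 1 higher in RM. The 2 higher in HD, DNAJC24 and DPH5, would fall under the limit of summed reads without their HD reads. The same holds for MKNK1, the 1 higher mTORC1 gene in HD, and for GFM2, 1 of the 2 higher mitochondrial factors. These genes were tested only because of reads in the library where they were called higher. DPH2, needed for the diphthamide residue of eEF2, had 259 reads (LD), 15 (HD), 105 (IL-6), 106 (IL-8) and 1549 (RM), a difference of 2.77 for RM. DOHH, which completes hypusine on eIF5A, differed by 2.25 in IL-8, on 12 reads in LD and 43 in IL-8.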

How the data were processed

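RNA was extracted from whole gels, selected with oligo-dT, reverse transcribed, amplified with phi29 polymerase and made into Nextera XT libraries, which do not mark strand, and read as 50 bp single-ended reads. The authors used Bowtie2 for alignment and RSEM for quantification. The submitters' processing notes name Bowtie2 2.3.1, RSEM 1.2.25, GRCh37 and hg19, and the annotation is not given in the sources used here. The deposited files give per gene a read count, in whole numbers, and TPM, both made by the authors for each library separately.

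Members and lists were chosen with earlier results of these data known. RNA5-8S5 was removed, CPM was computed from the read counts, and TPM was rescaled to 1000000. Differences are log2(CPM + 1) against LD, in genes with at least 50 reads over the 5 libraries. With 1 library per condition, no dispersion can be estimated and no test was made. Intervals of ratios are exact conditional binomial intervals and those of shares are Wilson intervals, both at 95%. Members described with full values were the 8 highest by mean TPM, the 3 largest increases and decreases in each comparison, and a core set of 27 genes, of which 26 were found, 37 members in all. Others were described for their role after their values were seen. Alternatives used TPM, totals with RNA5-8S5, TMM (edgeR 4.0.16), median-ratio size factors (DESeq2 1.42.0), pseudocounts of 0.1 and 5, no filter, at least 200 reads, and thinning to 449661 reads. Shared sequence was counted as 50-base windows of GENCODE 29 transcripts, where 65 of 66 members matched. Promoters came from RefSeq (GRCh38.p14). The scripts were tested on simulated data.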

Additional observations from a re-analysis of the deposited data

How the results depend on the processing

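No paired analysis was possible because each condition has 1 library and the labels carry no replicate numbers, and no library could be left out for the same reason. Among counts, medians and shares of members under these alternatives and with EIF3C and EIF3CL summed, 117 values stayed and 28 moved. To stay, a count had to lie within 1.5 times the main count and a share within its Wilson interval. A median had to lie within an interval taken over the members, which are not replicates of a condition. In the following, brackets hold the share of all genes called under the same setting. Members tested were 66 with no filter, 44 at 200 reads and 55 under the scalings, pseudocounts and thinning. Lower members in IL-6 were 4 under TMM (9.94%) and 5 with no filter (7.44%), and higher ones were 1 on the TPM scale (11.3%) and 0 at 200 reads (6.96%). Lower members in IL-8 were 5 under TMM (16.5%), 3 under median-ratio size factors (13.7%) and 5 at 200 reads (14.3%). Higher ones in IL-8 were 4 under median-ratio size factors (18.4%). They were 1 under each of TPM (11.2%), RNA5-8S5 kept in the total (7.63%), a pseudocount of 5 (9.29%), at least 200 reads (10.6%) and thinning (14.9%). Lower members in RM were 5 under TMM (18.4%) and 2 under median-ratio size factors (15.2%). Higher ones in RM were 10 under median-ratio size factors (21.3%), 2 at 200 reads (11.2%) and 2 after thinning (13.5%). The RM median was 0.039 under TMM and 0.21 under median-ratio size factors, beside -0.031 and 0.12 over all genes. Higher members in HD were 11 with RNA5-8S5 kept (39%), 14 with no filter (45.4%) and 1 at 200 reads (12.6%). The HD median was -1.92 on the TPM scale, -1.36 with RNA5-8S5 kept and -3.01 under TMM. Members with HD above all 4 low-density libraries were 16 with no filter, where the share of all genes is not given, and 1 at 200 reads (14%). Fewer or more genes pass at another filter, and the cause of the other shifts was not tested. EIF4ENIF1 in IL-6 changed sign when the libraries were thinned, at -0.37, and rests on 9 reads in LD and 14 in IL-6. Under each scaling the member median in HD lay below the median of all genes, with the difference between -1.73 and -1.60, but it was -0.86 at 200 reads and -2.48 with no filter. HD had 25 members under 10 reads, against 11 to 15 elsewhere, so its low members are the least certain. Members whose transcripts share at least 10% of windows with other entries numbered 23.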

Other observations

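Most members under the limit of 50 reads had reads in HD, as did most genes. HD had reads on 20112 of 27188 entries outside RNA5-8S5, against 13468 to 15079 in the low-density libraries, although it had the fewest reads. EIF4E1B, a germline relative of EIF4E, had 5 reads in HD and 0 at low density, and against a floor of 3 reads in LD it was at least 6.1-fold higher in CPM. EIF4EBP3 had 1 read, in HD, and 71.8% of its windows also occur in ANKHD1-EIF4EBP3. The pseudogene EEF1DP3 had 8 reads in HD and 0 to 3 elsewhere, and 100% of its windows also occur in FRY. The antisense entry EIF3J-AS1 had 12 reads in HD and 1 to 7 elsewhere. The libraries do not mark strand, and its overlap with EIF3J was not measured. Summed over the 4 pseudogene and antisense entries, TPM was 9.52 in LD and 106 in HD. EIF4E3, a cap-binding relative of EIF4E, had 7 reads in LD, 3 in HD and 1 in IL-8, and none in the other 2 libraries.

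Reads and TPM did not move in step for EIF4ENIF1. RM had 30 reads and 55.8 TPM, while IL-8 had 17 reads and 6.65 TPM. The log2 difference from LD in RM was 1.76 on the CPM scale and 3.36 on the TPM scale. The transcripts behind these values were not analysed here.

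The makeup of the factors by TPM also differed between libraries. eEF1 held 39.9% of member TPM in LD, 47.9% in RM and 25% in HD. eIF3 held 30.5% in LD, 26.2% in HD, 24.7% in RM, 23.3% in IL-8 and 31.1% in IL-6. eIF5A and eIF6 held 10.5% in LD, 19.4% in IL-8 and 20.9% in HD, most of it EIF6.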
